A study of Homo sapiens with 70 samples.

Results

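The genes described here are 9 of the 78932 genes in the deposited count table, taken by their gene name: NFS1, LYRM4, ISCU, GLRX5, ISCA1, ISCA2, NFU1, BOLA3 and LIAS. Together they encode the core of the mitochondrial machinery that builds iron-sulfur clusters, passes them on and uses them to make lipoic acid. The RNA came from MIA PaCa-2, an established line of pancreatic ductal adenocarcinoma, in a derivative resistant to the K-Ras inhibitor sotorasib. Cells carried an inducible dCas9-KRAB, a Cas9 that cannot cut fused to a repressor domain, and 1 of 3 guides: sgZBTB11 #1, sgZBTB11 #2, or sgNS, the line set against them. ZBTB11, the targeted gene, encodes a zinc finger protein. Each guide line was collected with DOX, the inducer, or with DMSO, its vehicle, after 5 hr, 1 day, 3 days and 5 days. That design gave 24 groups and 70 libraries, with 3 libraries a group except sgNS DMSO at day 1 and sgZBTB11 #1 DMSO at day 5, which had 2. Whether each line was a clone or a pool, and whether replicates were separate cultures, is not given in the sources used here, so p-values cover the spread among libraries only, and that spread may be technical.

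Iron-sulfur clusters are cofactors of respiratory complexes, lipoyl synthase and many nuclear enzymes. In mitochondria, the desulfurase NFS1, held active by its small partner LYRM4, supplies sulfur to the scaffold ISCU, on which a first [2Fe-2S] cluster forms. GLRX5 receives that cluster, ISCA1 and ISCA2 convert it to a [4Fe-4S] cluster, and NFU1 and BOLA3 deliver this larger form to chosen clients such as LIAS. The 9 genes were therefore read as 3 early members, NFS1, LYRM4 and ISCU, and 6 late members, GLRX5, ISCA1, ISCA2, NFU1, BOLA3 and LIAS.

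Promoter windows of 300 bases are shown for the early members, which form the scaffold complex, and for NFU1 and BOLA3, the late members whose mean DOX change with the ZBTB11 guides differed from that with sgNS at day 5. They run from 250 bases before to 50 bases after the RefSeq start on GRCh38.p14, 5′ to 3′ along the gene. Capitals mark matches to the ETS core CCGGAAG, the core of sites for GABP, or to the NRF1 site, which is GCGCA and GCGC parted by 1 base of any kind, searched on both strands. GABP and NRF1 are activators of many nuclear genes for mitochondrial proteins.
NFS1 on chr20:35699303-35699602, minus strand: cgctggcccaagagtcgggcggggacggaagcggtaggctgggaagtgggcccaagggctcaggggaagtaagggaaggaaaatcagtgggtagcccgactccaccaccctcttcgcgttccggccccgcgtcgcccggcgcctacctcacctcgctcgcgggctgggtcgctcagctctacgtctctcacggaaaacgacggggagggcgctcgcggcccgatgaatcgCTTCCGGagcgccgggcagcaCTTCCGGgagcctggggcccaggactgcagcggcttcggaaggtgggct
LYRM4 on chr6:5260901-5261200, minus strand: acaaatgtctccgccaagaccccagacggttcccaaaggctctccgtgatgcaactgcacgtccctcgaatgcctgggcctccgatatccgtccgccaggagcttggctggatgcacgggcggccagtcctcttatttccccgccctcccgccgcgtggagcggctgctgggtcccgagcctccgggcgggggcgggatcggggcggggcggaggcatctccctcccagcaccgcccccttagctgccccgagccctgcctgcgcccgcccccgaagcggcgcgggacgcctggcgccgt
ISCU on chr12:108562346-108562645, plus strand: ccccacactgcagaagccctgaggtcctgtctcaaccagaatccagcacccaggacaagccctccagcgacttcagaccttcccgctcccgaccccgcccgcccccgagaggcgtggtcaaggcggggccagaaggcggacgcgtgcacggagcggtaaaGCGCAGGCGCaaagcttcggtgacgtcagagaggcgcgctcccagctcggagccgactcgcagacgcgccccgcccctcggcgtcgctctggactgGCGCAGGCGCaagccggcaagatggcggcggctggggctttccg
NFU1 on chr2:69437386-69437685, minus strand: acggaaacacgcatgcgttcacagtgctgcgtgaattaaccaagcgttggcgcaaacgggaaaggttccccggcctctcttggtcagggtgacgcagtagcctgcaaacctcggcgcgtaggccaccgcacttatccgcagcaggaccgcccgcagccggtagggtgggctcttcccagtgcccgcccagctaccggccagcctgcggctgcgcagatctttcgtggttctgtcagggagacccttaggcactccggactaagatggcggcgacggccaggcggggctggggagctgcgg
BOLA3 on chr2:74147863-74148162, minus strand: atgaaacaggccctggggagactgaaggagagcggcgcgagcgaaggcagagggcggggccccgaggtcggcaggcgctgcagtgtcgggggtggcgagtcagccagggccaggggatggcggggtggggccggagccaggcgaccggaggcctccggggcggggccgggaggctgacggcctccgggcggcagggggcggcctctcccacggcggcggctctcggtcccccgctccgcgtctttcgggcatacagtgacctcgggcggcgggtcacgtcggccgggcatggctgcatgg
NFS1 held 2 matches to the ETS core, both read as CTTCCGG on this strand, and ISCU held 2 matches to the NRF1 site. Neither motif was found in the windows of the other 7 genes, and NFU1 has a second RefSeq window, also without a match. Across 35116 human promoter windows of the same length, 10.26% held the ETS core and 5.784% the NRF1 site. A match is a stretch of letters and was not tested for binding.

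Totals ran from 12068842 to 20627642 expected counts a library, and the 9 genes had 100 to 1589 counts each per library, so every one passed the filter on low counts at each time. The counts of LIAS, the lowest, carry the widest errors. Markers of the labelled line were mixed: KRT8, KRT18 and KRT19 had medians of 993.4, 1565 and 87.62 TPM (transcript abundance scaled for length and depth) and the mesenchymal filament VIM 3332 TPM, whereas the epithelial markers KRT7, EPCAM and CDH1 had medians of 0.09, 0 and 0 TPM. All 9 markers of other cell types had medians under 1 TPM. Counts from mitochondrial DNA made up 11.89 to 14.33% of a library at 5 hr and 25.98 to 33.72% at day 5.

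ZBTB11 itself checked the labels. At day 5 it had 38.38, 35.65 and 35.01 CPM (counts scaled to library size by the TMM method) in sgZBTB11 #1 DOX cells, against 46.94 and 50.46 CPM in DMSO cells. In the sgZBTB11 #2 line it had 28.46, 27.87 and 28.74 CPM in DOX cells, against 54.33, 52 and 52.03 CPM in DMSO cells. The sgNS line gave 52.18, 46.89 and 53.36 CPM in DOX cells, against 57.28, 51.17 and 60.12 CPM in DMSO cells. DOX and DMSO libraries did not overlap in either ZBTB11 guide line and did in the sgNS line, and the fall was deeper with sgZBTB11 #2, at a log2 change of −0.90, than with sgZBTB11 #1, at −0.42 (difference −0.48, adjusted p = 0.000258 by edgeR). In sgNS the change was −0.15 (adjusted p = 0.0323). At 5 hr sgZBTB11 #2 was already at −0.17, whereas sgZBTB11 #1 stood at 0.00 and sgNS at 0.17 (adjusted p = 0.00297). The sgNS call at day 5 was lost with DESeq2 (adjusted p = 0.119), with the length and GC trend removed (0.114), and without DMSO replicate 1 (0.0948), DMSO replicate 3 (0.326) or DOX replicate 2 (0.214). The sgZBTB11 #2 call at 5 hr was lost in the 3 limma fits on TPM (adjusted p from 0.186 to 0.377), with the trend removed (0.115) and without DMSO replicate 2 (0.0503). Uninduced lines differed in ZBTB11 too, with DMSO means at day 3 of 46.1 CPM in sgZBTB11 #1, 45.8 CPM in sgZBTB11 #2 and 54.8 CPM in sgNS. At 5 hr they were 55.5, 55.3 and 51.7 CPM in that order. Against the sgNS change, the day 5 call of sgZBTB11 #1 held in 8 of 16 alternatives and that of sgZBTB11 #2 in 17 of 17.

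On the per-length TPM scale the late member BOLA3 had the highest level of the 9 genes, with a median of 107.6 TPM over the 70 libraries and a range of 38.93 to 164.01 TPM. GLRX5 followed at 70.03 TPM, the scaffold ISCU at 58.45 TPM, NFU1 at 46.86 TPM and NFS1 at 34.81 TPM. ISCA1 had 30.14 TPM, ISCA2 20.09 TPM, LYRM4 19.2 TPM and LIAS, the enzyme that inserts sulfur to make lipoic acid, 8.925 TPM. LYRM4 lay above LIAS in 70 of 70 libraries and BOLA3 above GLRX5 in 69 of 70. NFS1 and ISCA1, by contrast, were in that order in only 35 of 70 libraries, and ISCA2 and LYRM4 in 40 of 70, and the order of each pair depended on time. At 5 hr ISCA1 ran from 34.71 to 52.18 TPM, wholly above NFS1 at 26.94 to 30.05 TPM, and at day 3 it ran from 18.82 to 25.57 TPM, wholly below NFS1 at 32.15 to 42.65 TPM. LYRM4 was likewise wholly above ISCA2 at 5 hr, 21.25 to 26.62 against 14.43 to 19.57 TPM, and wholly below it at day 3, 13.26 to 17.04 against 20.61 to 28.17 TPM. BOLA3 had a median of 144.3 TPM at 5 hr, 148.3 TPM at day 1, 78.79 TPM at day 3 and 52.77 TPM at day 5. NFS1 moved the other way, with 28.2, 31.65, 37.49 and 40.03 TPM at the same times.

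**Figure D1:**
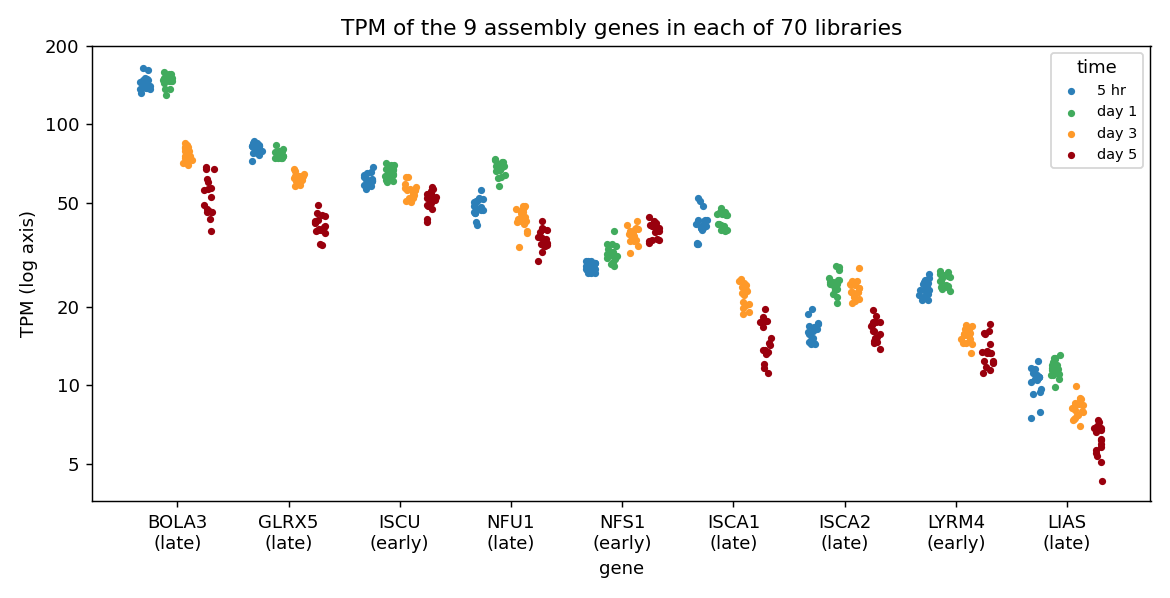
TPM on a log axis for each of the 9 genes, ordered by their median, with 1 point per library and a colour for each time. BOLA3 is highest at 5 hr, with a median of 144.3 TPM, and NFS1 is the gene whose points climb from left to right.

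How the machinery behaves without induction was read from the DMSO libraries of all 3 lines. On the CPM scale all 6 late members fell from day 3 to day 5, while 2 of the 3 early members, NFS1 and ISCU, rose and LYRM4 did not pass the test. Time is tied to the handling of each collection and cannot be told apart from library preparation. In bulk RNA, fewer cells that express a gene and less of its RNA per cell cannot be told apart either. Values are the lowest, median and highest of 9, 8, 9 and 8 DMSO libraries at 5 hr, day 1, day 3 and day 5, in CPM, and each time contrast is the mean over the 3 lines.

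NFS1, the desulfurase, had 41.3, 42.39 and 48.91 CPM at 5 hr, 43.46, 44.91 and 49.34 CPM at day 1, 41.4, 46.73 and 48.92 CPM at day 3, and 50.91, 54.96 and 58.99 CPM at day 5. Its day 5 libraries lay above every earlier DMSO library. LYRM4, the desulfurase's stabilising partner, had 28.34, 31.12 and 35.38 CPM at 5 hr, 26.62, 29.7 and 32.48 CPM at day 1, 15.55, 16.84 and 19.18 CPM at day 3, and 15.02, 16.96 and 20.95 CPM at day 5. Its libraries fell into an earlier high pair of times and a later low pair that did not overlap. ISCU, the scaffold, had 59.57, 64.31 and 68.01 CPM at 5 hr, 55.18, 58.12 and 60.13 CPM at day 1, 46.6, 49.67 and 53.77 CPM at day 3, and 50.27, 56.88 and 58.49 CPM at day 5. The scaffold thus dipped at day 3 and regained most of its day 1 level.

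BOLA3, the late delivery factor, had 48.24, 55.75 and 66.2 CPM at 5 hr, 40.5, 46.9 and 56.29 CPM at day 1, 23.09, 25.37 and 25.8 CPM at day 3, and 19.73, 21.09 and 23.71 CPM at day 5. ISCA1, which works with ISCA2 on the larger cluster, had 65.62, 78.77 and 89.46 CPM at 5 hr, 64, 66.65 and 76.27 CPM at day 1, 33.71, 38.57 and 39.91 CPM at day 3, and 23.37, 28.94 and 36.39 CPM at day 5. For both genes the day 3 libraries lay wholly below those of day 1. GLRX5, the receiver of the first cluster, stepped down at each time, with medians of 88.67, 69.71, 56.32 and 44.93 CPM. The medians of NFU1 were 38.88, 44.73, 31.6 and 24.05 CPM, and those of ISCA2 were 15.34, 20.68, 17.71 and 14.55 CPM, so both peaked at day 1. LIAS had medians of 16, 15.15, 10.6 and 8.967 CPM.

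In the fit of all libraries, day 1 against 5 hr gave 3 members higher, where 33% of tested genes were higher, and 4 lower, where 33.3% were lower. ISCA2 rose by a log2 change of 0.43 ± 0.04 (SE, adjusted p = 6.77e-15), NFU1 by 0.21 ± 0.03 and NFS1 by 0.08 ± 0.03, while GLRX5 changed most among those that fell, at −0.30 ± 0.03 (adjusted p = 1.02e-18). From day 1 to day 3, 8 of 9 members fell, where 38.8% of tested genes fell. The falls were largest for BOLA3 at −0.96 ± 0.03 (adjusted p = 7.78e-46), ISCA1 at −0.89 ± 0.03 (adjusted p = 1.52e-48) and LYRM4 at −0.80 ± 0.04 (adjusted p = 1.97e-31), and smallest for ISCU at −0.22 ± 0.03 and ISCA2 at −0.21 ± 0.04. NFS1 was the member that did not pass, at 0.00 ± 0.03 (adjusted p = 0.918). With limma on log2(TPM + 1), NFS1 rose by 0.22 (adjusted p = 5.82e-06) and ISCA2, at −0.046 (adjusted p = 0.429), lost its call. The median over the late members was −0.59, that over the early members −0.22 and that over all tested genes 0.04.

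Between day 3 and day 5 the early members NFS1 and ISCU rose, at 0.25 ± 0.03 (adjusted p = 1.21e-12) and 0.17 ± 0.03 (adjusted p = 1.56e-07), where 31.8% of tested genes rose. LYRM4 was at 0.04 ± 0.05 (adjusted p = 0.455). All 6 late members fell, from −0.41 ± 0.03 for ISCA1 (adjusted p = 7.02e-20) to −0.23 ± 0.04 for BOLA3 (adjusted p = 9.65e-08), where 32.9% of tested genes fell. Each line gave these directions for NFS1 and for GLRX5, ISCA1, ISCA2, NFU1 and BOLA3, while ISCU in the sgNS line was at 0.10 ± 0.05 (adjusted p = 0.0927) and LIAS in the sgZBTB11 #2 line at −0.12 ± 0.10 (adjusted p = 0.337). On the log2(TPM + 1) scale the median of all genes itself moved by 0.12 from 5 hr to day 1 and by −0.16 from day 3 to day 5. On that scale ISCU moved by −0.06, LYRM4 by −0.23 and NFS1 by 0.08 (limma, adjusted p = 0.107) between day 3 and day 5, so NFS1 and ISCU stayed above the median of all genes and LYRM4 lay below it. The share of counts from mitochondrial DNA also climbed over time, and with library sizes that leave those genes out, NFS1 was at 0.24, ISCU at 0.16, ISCA1 at −0.42 and BOLA3 at −0.24 from day 3 to day 5.

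**Figure D2:**
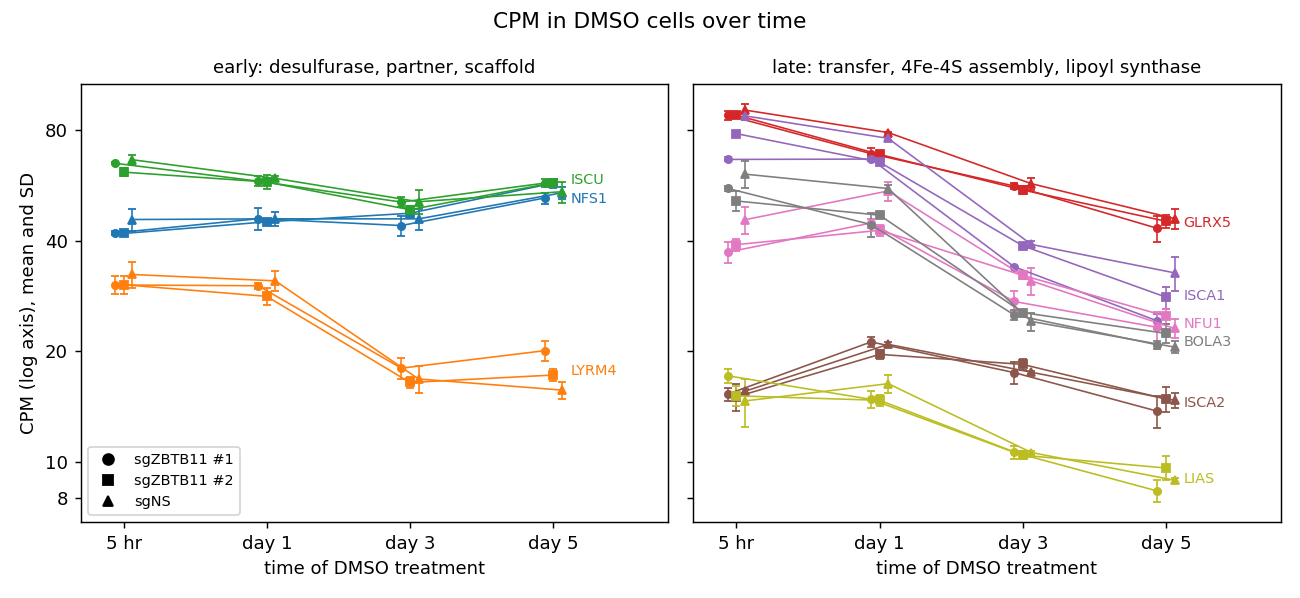
Mean CPM with SD on a log axis in DMSO cells at 5 hr, day 1, day 3 and day 5, for the early members at left and the late members at right, with 1 marker shape per guide line. NFS1 ends at its highest level, with a median of 54.96 CPM at day 5, while BOLA3 ends at 21.09 CPM.

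The uninduced lines were not alike. ISCA1 was lower in sgZBTB11 #1 DMSO cells than in sgNS DMSO cells at all 4 times. At 5 hr it had 65.62, 66.47 and 67.22 CPM in sgZBTB11 #1 DMSO cells, against 89.46, 85.45 and 86.85 CPM in sgNS DMSO cells, with no overlap and a log2 difference of −0.37 ± 0.04 (adjusted p = 5.69e-10). The day 1 difference was −0.18 ± 0.04, the day 3 difference −0.20 ± 0.05 and the day 5 difference −0.44 ± 0.08 (adjusted p = 4.78e-05). In the sgZBTB11 #2 line ISCA1 differed from sgNS by −0.15 ± 0.04 at 5 hr and −0.20 ± 0.04 at day 1. The 5 hr call was lost in 1 of 11 alternatives, with values from −0.22 to −0.017 over the 11. Mean TPM at 5 hr was 40.7 in sgZBTB11 #2 and 41.2 in sgNS DMSO cells. On day 3 the ISCA1 difference was −0.01 ± 0.05 (adjusted p = 0.94), while on day 5 it was −0.22 ± 0.07 (adjusted p = 0.0197). The sgZBTB11 #2 call at day 5 was lost in 3 of 11 alternatives. Among them were the fits without sgZBTB11 #2 DMSO replicate 1 (adjusted p = 0.15) or sgNS DMSO replicate 2 (adjusted p = 0.195). Of the ISCA1 counts, 75.7% were not whole numbers, which RSEM gives where a read could belong to more than 1 gene, and its pseudogene ISCA1P1 averaged 5.53 counts a library.

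NFU1 was lower than in sgNS at 5 hr, by −0.27 ± 0.06 in sgZBTB11 #1 and −0.22 ± 0.06 in sgZBTB11 #2, and at day 1, by −0.28 ± 0.05 (adjusted p = 0.00011) and −0.34 ± 0.05 (adjusted p = 1.51e-05). Its 5 hr call in sgZBTB11 #2 was lost in 1 of 11 alternatives, with values from −0.28 to −0.10 over the 11. BOLA3 was lower at day 1 by −0.32 ± 0.05 (adjusted p = 2.94e-05) and −0.23 ± 0.05, and GLRX5 by −0.18 ± 0.05 in each line. All 4 day 1 calls in sgZBTB11 #1 were lost on the log2(TPM + 1) scale, with BOLA3 at −0.12 (limma, adjusted p = 0.214) and NFU1 at −0.088 (adjusted p = 0.177). In sgZBTB11 #2 NFU1 kept its call, at −0.18 (adjusted p = 0.0152), and BOLA3, GLRX5 and ISCA1 lost theirs, at −0.072, −0.032 and −0.030. In all, 2, 4, 2 and 1 members were lower in sgZBTB11 #1 DMSO cells at 5 hr, day 1, day 3 and day 5, where 16.2%, 11.2%, 9.91% and 11.6% of tested genes were lower. For sgZBTB11 #2 the numbers were 3, 4, 0 and 1, where 16.8%, 6.69%, 1.57% and 9.63% of genes were lower. Only late members were among these, but 6 of the 9 members are late, and early members were not tested against late ones. The single early member that differed, LYRM4 in sgZBTB11 #1 at day 5, was higher by 0.34 ± 0.09 (adjusted p = 0.0031), where 10.3% of genes were higher, and lost its call without sgZBTB11 #1 DMSO replicate 2 (0.28, adjusted p = 0.0953). Other calls also rest on single libraries: NFU1 in sgZBTB11 #1 at day 3 was lost without its DMSO replicate 1 or sgNS DMSO replicate 1 or 2 (adjusted p from 0.113 to 0.211). In sgZBTB11 #2 at day 1, GLRX5 was lost without sgNS DMSO replicate 1 or 2 (0.0722 and 0.0558) and BOLA3 without sgNS DMSO replicate 2 (0.0686). These lines differ in guide and may differ in their history, which cannot be told apart here.

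At 5 hr, before ZBTB11 had fallen in the sgZBTB11 #1 line, edgeR's test called 4 members with DOX in the sgZBTB11 #1 line, where 32.8% of tested genes were called, and 0 in the sgZBTB11 #2 line, where 17% were. In the sgNS line 4 members fell, where 20.1% of genes fell, and early and late members were among those called in both lines. BOLA3 had 48.31, 47.36 and 49.21 CPM in sgZBTB11 #1 DOX cells, against 54.37, 56.12 and 55.75 CPM in DMSO cells. With sgZBTB11 #2 it had 55.99, 54.84 and 52.84 CPM in DOX cells, against 50.91, 54.52 and 48.24 CPM in DMSO cells. In the sgNS line it had 46.94, 46.64 and 49.09 CPM in DOX cells, against 59.48, 66.2 and 56.09 CPM in DMSO cells. DOX libraries lay wholly below DMSO libraries for sgZBTB11 #1 and sgNS and overlapped them for sgZBTB11 #2. BOLA3 was not alone in this. With sgZBTB11 #1, ISCU and GLRX5 also lay wholly below and ISCA1 wholly above. With sgNS, GLRX5, ISCA2 and NFU1 also lay wholly below. The share of all genes without overlap at 5 hr is not reported here.

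NFU1 separated in 1 line at 5 hr, sgNS. With sgZBTB11 #2 it had 39.55, 42.37 and 41.1 CPM in DOX cells, against 40.47, 38.88 and 37.61 CPM in DMSO cells. With sgZBTB11 #1 the values were 35.1, 34.21 and 32.15 CPM in DOX cells, against 38.74, 38.35 and 34.49 CPM in DMSO cells. It had 36.18, 38.38 and 37.75 CPM in sgNS DOX cells, against 49.17, 46.03 and 41.49 CPM in sgNS DMSO cells, which did not overlap. Both ZBTB11 guide lines gave overlapping NFU1 libraries.

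By edgeR's quasi-likelihood test with Benjamini-Hochberg adjustment, 4 members were called at 5 hr in the sgZBTB11 #1 line, where 32.8% of tested genes were called. BOLA3 fell by a log2 change of −0.20 ± 0.05 (adjusted p = 0.00221), GLRX5 by −0.17 ± 0.04 (adjusted p = 0.00207) and ISCU by −0.13 ± 0.04 (adjusted p = 0.0123), while ISCA1 rose by 0.12 ± 0.04 (adjusted p = 0.0125). In sgNS, 4 members fell, where 20.1% of genes fell: BOLA3 at −0.33 ± 0.05 (adjusted p = 7.69e-07), NFU1 at −0.27 ± 0.06 (adjusted p = 0.00015), NFS1 at −0.14 ± 0.05 (adjusted p = 0.0276) and GLRX5 at −0.13 ± 0.04 (adjusted p = 0.0149). None of the 9 was called with sgZBTB11 #2, where 17% of genes were, and 1 had an unadjusted p under 0.05 and 0 were called by DESeq2. Several of these calls rest on single libraries. In sgZBTB11 #1, ISCU lost its call without DMSO replicate 2 or DOX replicate 2 (adjusted p = 0.0563 and 0.103), GLRX5 without DOX replicate 3 (0.0696) and ISCA1 without DOX replicate 1 (0.058). In sgNS, NFS1 lost its call without DMSO replicate 2 or 3 or DOX replicate 1 or 2 (adjusted p from 0.0591 to 0.213), and GLRX5 without DMSO replicate 1 or 2 or DOX replicate 2 (0.0512 to 0.0972). With the trend of the log2 change on gene length and GC removed, no member was called in sgZBTB11 #1 and BOLA3 and NFU1 remained in sgNS. Over all 15 alternatives, BOLA3 lost its sgZBTB11 #1 call in 4, with values from −0.20 to −0.043. In sgNS, BOLA3 kept its call in 15 of 15. NFU1 lost its sgNS call in 3 of 15, with values from −0.32 to −0.054. The share of mitochondrial DNA counts at 5 hr was 12.27% in sgZBTB11 #1 DOX cells and 14.07% in DMSO cells, and 12.13% in sgNS DOX cells and 14.12% in sgNS DMSO cells, and its part in these changes was not tested.

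At day 1 the DOX change reached the threshold for ISCA1 and for no other member. It had 75.32, 72.65 and 74.22 CPM in sgZBTB11 #2 DOX cells, against 66.46, 64 and 65.42 CPM in DMSO cells, a log2 change of 0.20 ± 0.04 (adjusted p = 0.000615). That was 1 of 9 members, where 3.43% of tested genes rose. With sgZBTB11 #1 it had 71.62, 72.46 and 69.94 CPM in DOX cells, against 66.84, 65.56 and 67.33 CPM in DMSO cells, a change of 0.12 ± 0.04 (adjusted p = 0.0467) where 1.64% of genes rose, and that call was lost in all 16 alternatives, with adjusted p from 0.0508 to 0.322. In sgNS it had 81.07, 81.07 and 82.04 CPM in DOX cells, against 76.27 and 75.32 CPM in DMSO cells, a change of 0.12 ± 0.04 (adjusted p = 0.13). In sgNS, 0 of 9 members were called by edgeR, where 2.19% of genes were, with 2 at an unadjusted p under 0.05 and 0 called by DESeq2. ISCA1 had DOX libraries above DMSO libraries in all 3 lines, with 2 DMSO libraries in sgNS. Other members separated too. LYRM4, GLRX5 and LIAS lay wholly below in sgZBTB11 #1, and NFU1 wholly above in sgZBTB11 #2. With sgNS, ISCU lay wholly above and GLRX5 and LIAS wholly below. The share of all genes without overlap at day 1 is not reported here. The test of the difference between lines gave a net change of 0.04 ± 0.05 for ISCA1 (adjusted p = 0.941).

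At day 3, with ZBTB11 at its log2 change of −0.45 in sgZBTB11 #1 and −0.79 in sgZBTB11 #2, 0 of 9 members were called in any line by edgeR's test, while the share of tested genes called was 0.733% for sgZBTB11 #1, 1.17% for sgZBTB11 #2 and 0.877% for sgNS. Member changes lay between −0.02 and 0.10 for sgZBTB11 #1, −0.07 and 0.03 for sgZBTB11 #2, and −0.09 and 0.16 for sgNS. At an unadjusted p under 0.05 the numbers were 0 for sgZBTB11 #1, 0 for sgZBTB11 #2 and 1, BOLA3, for sgNS, and DESeq2 called 0 in each. The scaffold ISCU, for example, had 47.01, 50.77 and 51.08 CPM in sgZBTB11 #2 DOX cells, against 47.13, 48.69 and 49.67 CPM in DMSO cells. BOLA3 had 24.61, 25.39 and 25.23 CPM in sgZBTB11 #2 DOX cells, against 25.7, 25.75 and 25 CPM in DMSO cells. Both sets overlapped. The members that did not overlap at day 3 were ISCA1 in sgZBTB11 #1, with DOX libraries above, where that held for 6.61% of genes, and NFU1 in sgZBTB11 #2, with DOX libraries below, where that held for 9.44%. In sgNS they were BOLA3, above, and LIAS, below, where 17% of genes did not overlap in either direction.

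**Figure D3:**
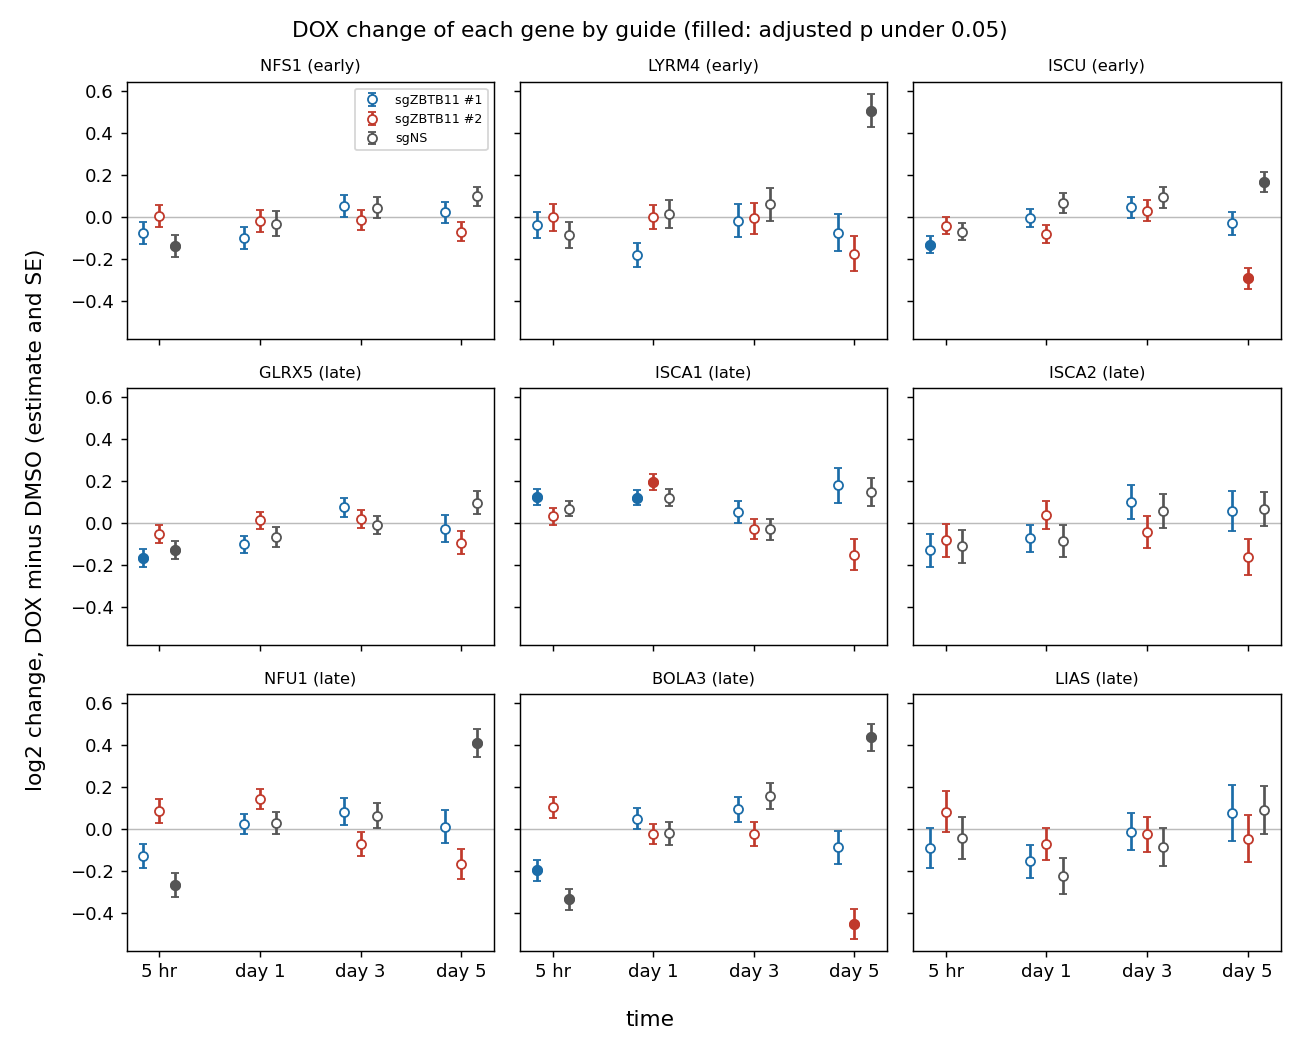
Log2 change, DOX minus DMSO, with its SE for each gene at 5 hr, day 1, day 3 and day 5, with 1 colour per guide line and filled points where the adjusted p was under 0.05. The lines spread furthest apart at day 5 for LYRM4, ISCU, NFU1 and BOLA3, where sgNS lies highest, for example for BOLA3 at −0.45 with sgZBTB11 #2 against 0.44 with sgNS.

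Day 5 gave the largest differences between the lines, and they fell on both early and late members. ISCU and BOLA3 fell with DOX in sgZBTB11 #2 cells, no member was called in sgZBTB11 #1 cells, and LYRM4, ISCU, NFU1 and BOLA3 rose with DOX in sgNS cells.

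Among the early members, LYRM4 had 14.79, 15.67 and 15.51 CPM in sgZBTB11 #2 DOX cells, against 16.58, 17.82 and 17.32 CPM in DMSO cells. In sgZBTB11 #1 it had 15.94, 19.41 and 21.61 CPM in DOX cells, against 19.2 and 20.95 CPM in DMSO cells. In sgNS it had 21.51, 23.4 and 22.33 CPM in DOX cells, against 15.02, 16.59 and 15.46 CPM in DMSO cells. DOX libraries were wholly lower with sgZBTB11 #2, wholly higher with sgNS, and overlapped the DMSO libraries with sgZBTB11 #1. The log2 change was −0.17 ± 0.08 in sgZBTB11 #2 (adjusted p = 0.224), −0.07 ± 0.09 in sgZBTB11 #1 (adjusted p = 0.83) and 0.51 ± 0.08 in sgNS (adjusted p = 1.71e-06). LYRM4 overlaps FARS2, a mitochondrial tRNA synthetase gene with a mean of 165.59 counts, and LYRM4-AS1, with 22.186 counts. Whether counting used strand is not given in the sources used here, so reads of LYRM4 and its antisense partner may not be separated.

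ISCU had 45.86, 50.03 and 45.48 CPM in sgZBTB11 #2 DOX cells, against 57.05, 58.49 and 56.72 CPM in DMSO cells. In sgZBTB11 #1 it had 53.24, 55.54 and 58.73 CPM in DOX cells, against 58.28 and 56.28 CPM in DMSO cells. In sgNS it had 61.93, 63.76 and 58.52 CPM in DOX cells, against 50.27, 57.16 and 55.41 CPM in DMSO cells. The scaffold was thus wholly lower with sgZBTB11 #2, at −0.29 ± 0.05 (adjusted p = 2.26e-05), and wholly higher in sgNS, at 0.17 ± 0.05 (adjusted p = 0.00918). The sgNS call was lost in 6 of 15 alternatives, with values from 0.069 to 0.20 over the 15. Among the losses were the fits without sgNS DMSO replicate 1 (adjusted p = 0.108) or DOX replicate 2 (adjusted p = 0.0617). NFS1, the desulfurase, had 55.25, 53.89 and 54.79 CPM in sgZBTB11 #2 DOX cells, against 58.99, 56.76 and 56.05 CPM in DMSO cells. In sgNS it had 57.93, 55.58 and 59.4 CPM in DOX cells, against 55.54, 54.37 and 51.76 CPM in DMSO cells. Its changes, −0.07 in sgZBTB11 #2, 0.02 in sgZBTB11 #1 and 0.10 in sgNS, did not pass the test.

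BOLA3 was the late member with the widest spread between lines. It had 15.1, 17.37 and 16.82 CPM in sgZBTB11 #2 DOX cells, against 22.41, 20.99 and 23.71 CPM in DMSO cells. In sgZBTB11 #1 it had 19.33, 19.65 and 19.58 CPM in DOX cells, against 21.18 and 20.47 CPM in DMSO cells. In sgNS it had 27.93, 27.62 and 27.77 CPM in DOX cells, against 21.31, 20.56 and 19.73 CPM in DMSO cells. All 3 lines had DOX and DMSO libraries that did not overlap, lower with both ZBTB11 guides and higher with sgNS. The changes were −0.45 ± 0.07 in sgZBTB11 #2 (adjusted p = 4.73e-06), −0.09 ± 0.08 in sgZBTB11 #1 (adjusted p = 0.739) and 0.44 ± 0.06 in sgNS (adjusted p = 7.03e-07). BOLA3 overlaps TET3, a methylcytosine dioxygenase gene with a mean of 382.76 counts.

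NFU1, the other delivery factor, had 21.69, 22.47 and 22.47 CPM in sgZBTB11 #2 DOX cells, against 23.77, 24.93 and 26.02 CPM in DMSO cells. In sgZBTB11 #1 it had 20.77, 23.37 and 25.75 CPM in DOX cells, against 21.52 and 24.92 CPM in DMSO cells. In sgNS it had 31.33, 29.51 and 31.23 CPM in DOX cells, against 21.6, 24.33 and 23.28 CPM in DMSO cells. The sgNS DOX libraries stood above all other NFU1 libraries of that day. The change was −0.17 ± 0.07 in sgZBTB11 #2 (adjusted p = 0.146) and 0.01 ± 0.08 in sgZBTB11 #1, against 0.41 ± 0.07 in sgNS (adjusted p = 4.78e-06). The sgNS call of NFU1 was lost in 3 of 15 alternatives, with values from 0.20 to 0.44 over the 15.

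GLRX5 had 42.69, 41.15 and 43.21 CPM in sgZBTB11 #2 DOX cells, against 46.3, 45.99 and 43.04 CPM in DMSO cells, which overlapped. ISCA1 had 26.16, 24.01 and 25.5 CPM in sgZBTB11 #2 DOX cells, against 25.97, 29.76 and 28.47 CPM in DMSO cells, which also overlapped. ISCA2 had 13.11, 12.89 and 13.71 CPM in sgZBTB11 #2 DOX cells, against 13.73, 14.78 and 15.98 CPM in DMSO cells, with the DOX libraries just below. LIAS had 10.13, 8.416 and 9.304 CPM in sgZBTB11 #2 DOX cells, against 9.519, 8.977 and 10.41 CPM in DMSO cells. None of these 4 passed the test in any line at day 5. Their sgNS changes were 0.10 for GLRX5, 0.15 for ISCA1, 0.07 for ISCA2 and 0.09 for LIAS.

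Counting all 9 genes at day 5, 2 fell in sgZBTB11 #2, where 6% of tested genes fell, and 0 were called in sgZBTB11 #1 by edgeR, where 1.14% of genes were called, with 1 of 9 members at an unadjusted p under 0.05 and 0 by DESeq2. In sgNS 4 rose, where 8.87% of genes rose. DOX libraries lay wholly below DMSO libraries for 6 members in sgZBTB11 #2 (NFS1, LYRM4, ISCU, ISCA2, NFU1 and BOLA3), where that held for 13.9% of genes, and for 1 in sgZBTB11 #1 (BOLA3), where it held for 15.4%. They lay wholly above for 4 members in sgNS, where that held for 15.3% of genes. All 9 log2 changes were below 0 in sgZBTB11 #2 and all 9 above 0 in sgNS, with medians of −0.16 and 0.15, beside medians of 0.00 over all genes in each. The other ZBTB11 guide, sgZBTB11 #1, was split, with 5 members above 0 and 4 below. On the log2(TPM + 1) scale 8 of 9 were below 0 in sgZBTB11 #2 and 4 of 9 above 0 in sgNS, where the median of all genes was 0.03 and −0.16, so that all 9 lay below that median in sgZBTB11 #2 and all 9 above it in sgNS. For sgZBTB11 #1, 4 members lay above the median of all genes on that scale and 5 below. These comparisons use different libraries. The mitochondrial DNA share at day 5 was 31.43% in sgZBTB11 #2 DOX cells and 31.27% in DMSO cells, 32.96% in sgZBTB11 #1 DOX cells and 33.64% in DMSO cells, and 29.54% in sgNS DOX cells and 26.25% in sgNS DMSO cells. Its part in the sgNS changes was not tested.

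**Figure D4:**
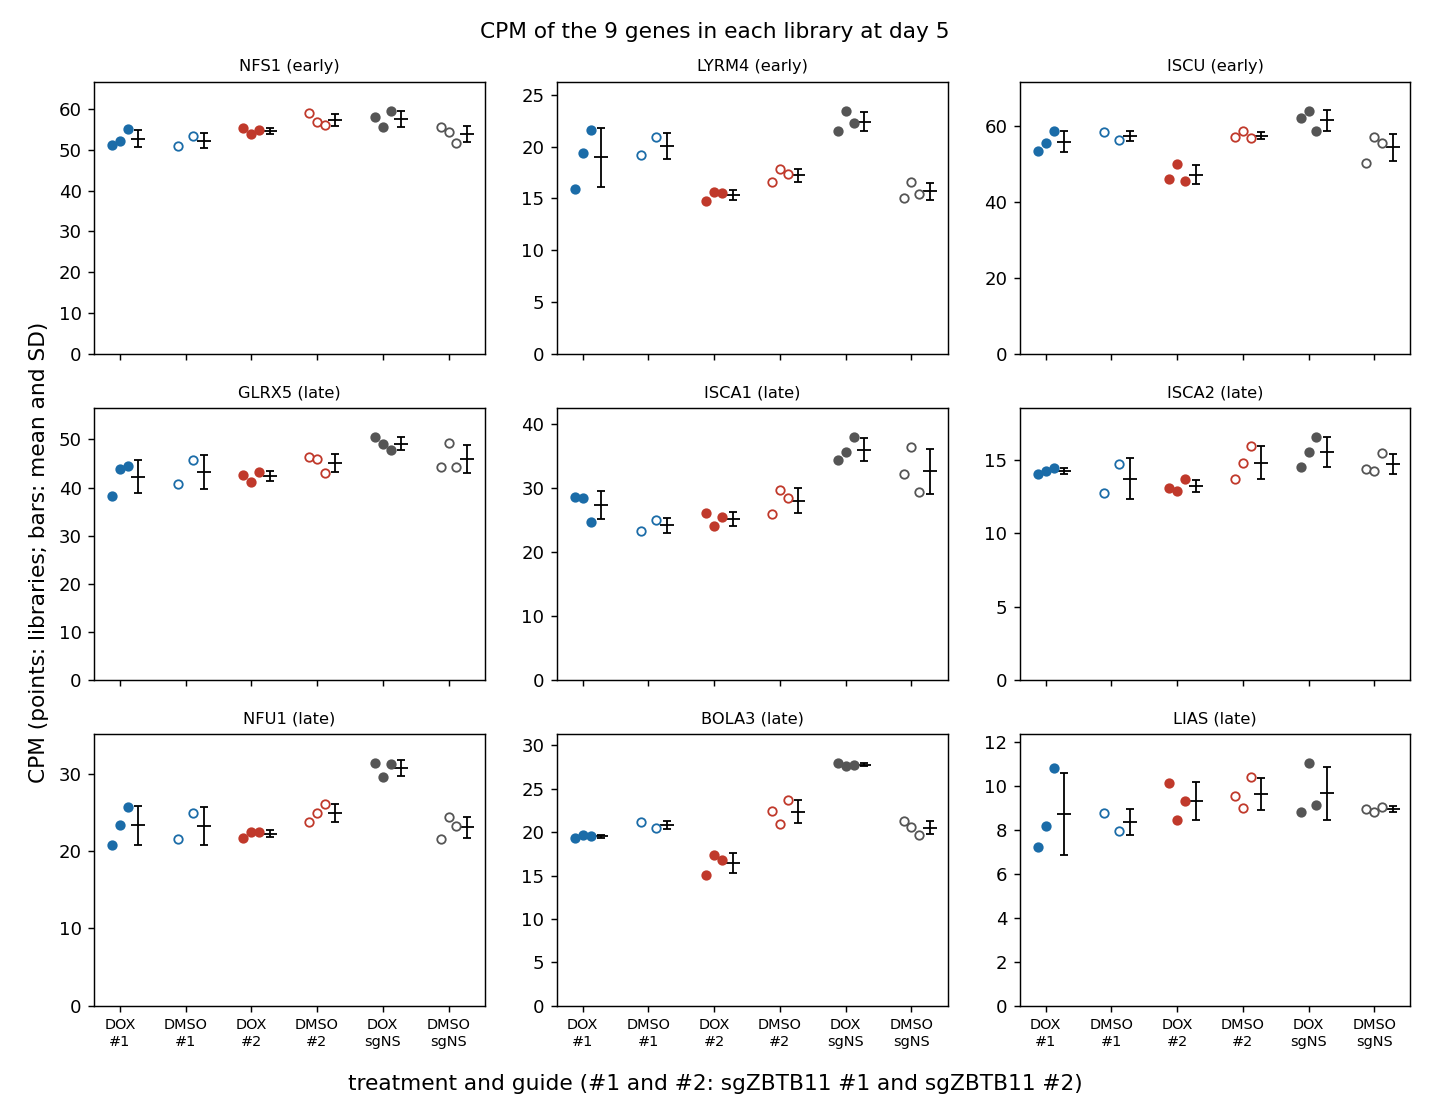
CPM at day 5 for each gene, with 1 point per library, DOX filled and DMSO open, and the mean with SD beside the points. In BOLA3 and NFU1 the sgNS DOX libraries stand above every other group, at 27.62 to 27.93 CPM and 29.51 to 31.33 CPM.

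The difference between lines was tested directly as a net change: the mean DOX change of the 2 ZBTB11 guides minus that of sgNS. At day 5 it was below 0 for 4 members that passed, where 10.3% of tested genes were lower, 2 early and 2 late: BOLA3 at −0.71 ± 0.08 (adjusted p = 2.42e-09), LYRM4 at −0.63 ± 0.10 (adjusted p = 2e-06), NFU1 at −0.48 ± 0.09 (adjusted p = 1.57e-05) and ISCU at −0.33 ± 0.06 (adjusted p = 3.4e-05). Among all 16809 genes these net changes lay at percentiles 2.27, 2.89, 5.32 and 10.9. The other 5 were GLRX5 at −0.16 ± 0.07 (adjusted p = 0.103), ISCA1 at −0.13 ± 0.09 (adjusted p = 0.329), NFS1 at −0.12 ± 0.06 (adjusted p = 0.126), ISCA2 at −0.12 ± 0.10 (adjusted p = 0.489) and LIAS at −0.08 ± 0.14 (adjusted p = 0.782). The median was −0.33 over the early members, −0.14 over the late members and 0.00 over all tested genes. The net change subtracts the sgNS change, so for LYRM4 it joins guide changes of −0.17 and −0.07 with a rise of 0.51 in sgNS. For LYRM4 and NFU1 the sgNS change was the only one of the 3 that passed, and that call was lost in 1 and 3 of 15 alternatives. On the log2(TPM + 1) scale, where the median of all genes moved by 0.19, 8 of 9 members lay below that median and 4 of 9 below 0.

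By guide, sgZBTB11 #1 gave a net change at day 5 that passed for LYRM4 at −0.58 ± 0.12 (adjusted p = 0.000323), BOLA3 at −0.52 ± 0.10 (adjusted p = 0.000165) and NFU1 at −0.40 ± 0.10 (adjusted p = 0.00653), where 6.22% of tested genes were lower. ISCU was at −0.20 ± 0.07 (adjusted p = 0.0669). The NFU1 call was lost in 3 of 16 alternatives, among them the fit without sgZBTB11 #1 DMSO replicate 2 (−0.29, adjusted p = 0.131). LYRM4 and BOLA3 each lost theirs in 1 of 16. Guide sgZBTB11 #2 gave 5 members lower, where 10.5% of genes were: BOLA3 at −0.89 ± 0.10 (adjusted p = 1.71e-10), LYRM4 at −0.68 ± 0.11 (adjusted p = 7.44e-06), NFU1 at −0.57 ± 0.10 (adjusted p = 7.24e-06), ISCU at −0.46 ± 0.07 (adjusted p = 7.17e-07) and ISCA1 at −0.30 ± 0.10 (adjusted p = 0.0274). Both guides share the sgNS libraries, so these are not independent of each other. The ISCA1 call was lost in 8 of 17 alternatives, and its value ran from −0.38 to −0.060 over the 17. Among the losses were the fits without sgZBTB11 #2 DMSO replicate 2 or 3, sgZBTB11 #2 DOX replicate 2, or sgNS DMSO or DOX replicate 3 (adjusted p from 0.0634 to 0.139). With sgZBTB11 #2, NFU1 lost its call in 1 of 17. Set against each other, sgZBTB11 #2 minus sgZBTB11 #1, the DOX change differed for BOLA3 at −0.36 ± 0.11 (adjusted p = 0.0475) and ISCU at −0.26 ± 0.07 (adjusted p = 0.0378), where 1.78% of genes were lower, and those calls were lost in 13 and 12 of 16 alternatives, 8 and 9 of them with 1 library left out.

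**Figure D5:**
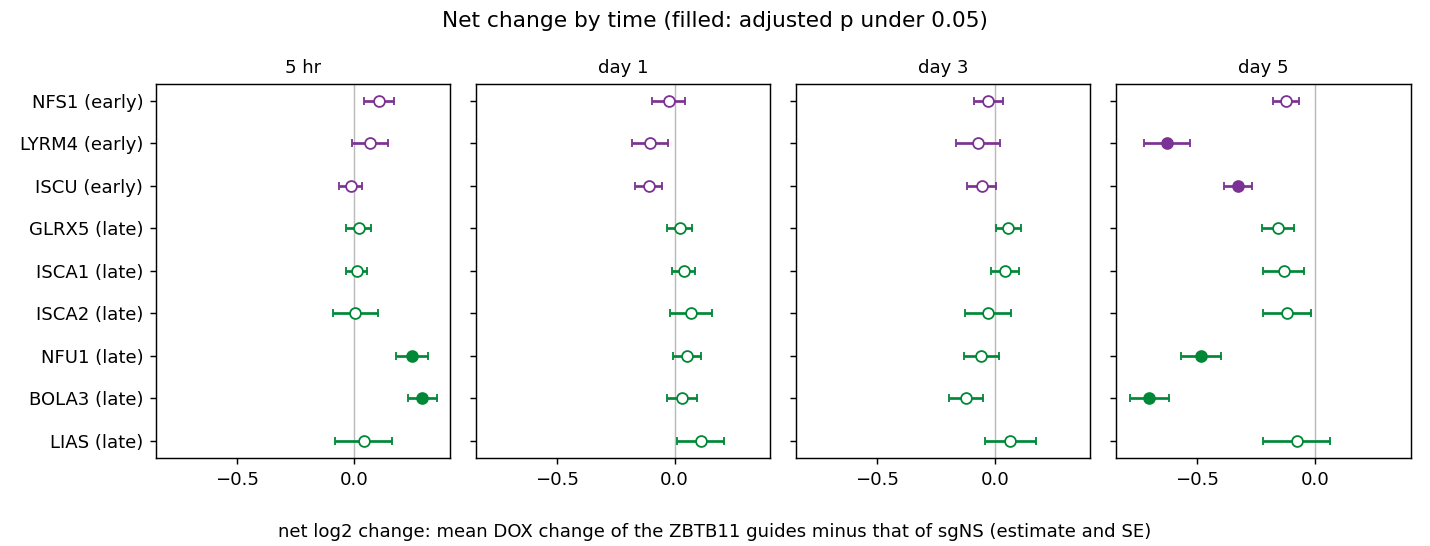
Net log2 change with its SE, the mean DOX change of the ZBTB11 guides minus that of sgNS, for each gene at 5 hr, day 1, day 3 and day 5, filled where the adjusted p was under 0.05. NFU1 and BOLA3 lie above 0 at 5 hr, at 0.24 and 0.29, and below 0 at day 5, at −0.48 and −0.71.

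Earlier times gave another picture. At 5 hr the net change was above 0 for BOLA3, at 0.29 ± 0.06 (adjusted p = 0.000318), and NFU1, at 0.24 ± 0.07 (adjusted p = 0.00553), 2 of 9 members where 14.7% of tested genes were higher. Neither gene had a called rise with DOX in a ZBTB11 guide line at 5 hr, and both fell in sgNS. The uninduced levels also differed, with BOLA3 means of 55.4 CPM in sgZBTB11 #1, 51.2 CPM in sgZBTB11 #2 and 60.6 CPM in sgNS DMSO cells. On the log2(TPM + 1) scale, where the median of all genes was −0.13, NFU1 lost its call, at 0.095 (limma, adjusted p = 0.382), while ISCU, at −0.13 (adjusted p = 0.0252), and ISCA1, at −0.16 (adjusted p = 0.0257), gained one. It passed with sgZBTB11 #2, at 0.44 ± 0.07 for BOLA3 and 0.35 ± 0.08 for NFU1 where 20.4% of genes were higher, and for no member with sgZBTB11 #1, where 6.93% of genes were called and 0 members had an unadjusted p under 0.05. The difference between the guides at 5 hr was 0.30 ± 0.07 for BOLA3 (adjusted p = 0.000896) and 0.21 ± 0.08 for NFU1 (adjusted p = 0.0353), where 16.7% of genes were higher, and the NFU1 call was lost in 8 of the 12 fits without 1 library (adjusted p from 0.0639 to 0.13). No member had a net change past the threshold at day 1, where 0.0737% of genes did, or at day 3, where 0.493% did, with 0 and 0 members at an unadjusted p under 0.05 and 0 and 0 called by DESeq2. The net change was lower at day 5 than at day 3 for BOLA3 by −0.59 ± 0.11 (adjusted p = 3.87e-05), LYRM4 by −0.57 ± 0.14 (adjusted p = 0.0025), NFU1 by −0.44 ± 0.11 (adjusted p = 0.00535) and ISCU by −0.28 ± 0.08 (adjusted p = 0.021), where 3.68% of genes were lower. Between day 1 and day 3 no member's net change differed by edgeR's test, where 0.172% of genes did, with 0 at an unadjusted p under 0.05. With library sizes that leave out mitochondrial DNA genes, the day 5 minus day 3 values were −0.61, −0.58, −0.45 and −0.30 in the same order, all called. On the log2(TPM + 1) scale LYRM4, at −0.26 (limma, adjusted p = 0.21), and NFU1, at −0.17 (adjusted p = 0.437), lost this call. With the length and GC trend removed ISCU, at −0.19 (adjusted p = 0.209), and NFU1, at −0.33 (adjusted p = 0.0611), lost it, and BOLA3 kept it in all 4 alternatives.

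Other genes of iron-sulfur metabolism give the setting, in lists written with earlier results of these data known. Of 17 tested mitochondrial partners of the machinery, such as chaperones and ferredoxins, 2 had a lower net change at day 5, where 10.3% of tested genes did, and 0 a higher one, where 8.95% did: NDUFAB1, the acyl carrier protein that binds LYRM4, at −0.57, and the chaperone HSPA9 at −0.26. Of 10 cytosolic assembly genes, GLRX3 at −0.42 and MMS19, which hands clusters to nuclear enzymes, at −0.18 were lower and 0 higher. Of 19 mitochondrial client genes 2 were lower, among them SDHB, the iron-sulfur subunit of complex II, at −0.37, and 0 higher. None of 14 nuclear and cytosolic clients passed edgeR's test, with 0 at an unadjusted p under 0.05 and PPAT at 0.18 and CDKAL1 at 0.16 the farthest from 0. Of 9 iron-handling genes 2 were higher and 4 lower, with heme oxygenase HMOX1 at 0.74, the ferritin chains FTH1 at −0.60 and FTL at −0.31, and the ferritin receptor NCOA4 at −0.29. List medians were −0.04, −0.08, −0.07, 0.05 and −0.04, beside 0.00 over all genes.

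The same genes were read in each line at day 5. With sgZBTB11 #2, 6% of tested genes were lower. Among them were NDUFAB1 at −0.29, HSPA9 at −0.15, GLRX3 at −0.31, SDHB at −0.22, FTH1 at −0.29 and the transferrin receptor TFRC at −0.16. The complex I subunit NDUFS7 was higher at 0.24, where 3% of tested genes were. With sgZBTB11 #1 the ferritin chain FTL, at −0.14, was the single gene of the 5 lists that passed, where 1.14% of tested genes were called. In sgNS cells with DOX, 8.87% of tested genes were higher and 8.47% lower. Of the partners 3 were higher, NDUFAB1 by 0.42, FDX2, a ferredoxin, by 0.27 and HSPA9 by 0.15. IBA57, a late assembly factor, was the 1 partner that was lower, by 0.46 on the log2 scale. GLRX3 rose by 0.23 and MMS19 by 0.10, SDHB by 0.23 and the Rieske protein UQCRFS1 by 0.22, and among iron-handling genes FTH1 rose by 0.41, FTL by 0.21 and NCOA4 by 0.21. At 5 hr the net change passed in more of them, as it did in more of all genes. Higher were 4 partners, 5 cytosolic assembly genes, 8 mitochondrial clients, 4 nuclear clients and 3 iron-handling genes, where 14.7% of tested genes were higher. In the same order 0, 0, 2, 4 and 3 were lower, where 15.2% of tested genes were lower. At day 5 those shares of all genes were 8.95% and 10.3%.

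In DMSO cells most partners and mitochondrial clients fell from day 1 to day 3, as did the late members and the early members LYRM4 and ISCU. Of 17 partners 15 fell, where 38.8% of tested genes fell, and 1 rose, where 40.2% rose. Those that fell included IBA57 at −1.32, the import factor GRPEL1 at −1.06, HSPA9 at −1.01 and NDUFAB1 at −0.88. The same shares of all genes apply to the other lists from day 1 to day 3. Of 19 mitochondrial clients 16 fell and 1 rose, led by UQCRFS1 at −1.76, the outer membrane protein CISD1 at −1.44 and SDHB at −1.01, and the list medians were −0.46 and −0.55. Of 10 cytosolic assembly genes 7 fell, with CIAPIN1 at −1.22 and GLRX3 at −1.06, and of 9 iron-handling genes 7 fell, with the ferrireductase STEAP3 at −1.58 and TFRC at −1.57. From day 3 to day 5, 9 partners and 12 mitochondrial clients fell, where 32.9% of tested genes fell, and 4 and 3 rose, where 31.8% rose. The cytosolic list was split, with 5 higher, MMS19 at 0.51 the farthest, and 4 lower.

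Across the 24 groups, the members' mean log2 CPM moved with time, which every pair of genes shares. ISCA1 and BOLA3 had a Pearson r of 0.972 and BOLA3 and LIAS one of 0.955, LYRM4 followed BOLA3 at 0.951, and NFS1 ran against all 8 others, from −0.257 with ISCA2 to −0.842 with GLRX5. LYRM4, early by role, had an r of 0.831 to 0.951 with 5 of the 6 late members and 0.812 with ISCU, but 0.162 with the late member ISCA2. ISCA2 itself ranged from −0.257 with NFS1 to 0.603 with NFU1. Over 11202 genes with a mean of at least 5 CPM, the genes most like NFS1 were UBR4 at 0.9641 and AIFM2 at 0.9554, those most like LYRM4 MRPL9 at 0.9839 and EEF1E1 at 0.978, and those most like ISCU GEMIN7 at 0.8932 and TOMM6 at 0.8893. For GLRX5 they were XPA at 0.9869 and LAGE3 at 0.9862, for ISCA1 PHAX at 0.995 and LLPH at 0.9922, and for ISCA2 CDC25C at 0.9491 and CENPI at 0.9397. For NFU1 they were COMMD9 at 0.9806 and PRKAG1 at 0.9783, for BOLA3 BCAP31 at 0.9934 and RPS27A at 0.9932, and for LIAS S100A10 at 0.977 and PTPRF at 0.9762.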

How the data were processed

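Poly(A) RNA of 70 libraries in 24 groups (guide, treatment and time) was sequenced in pairs of 75-base reads. The authors' deposited table of expected counts per gene was made with RSEM on GRCh38.p14, per the submitters' processing notes, and the deposited TPM table comes from the same run. What is not given in the sources used here is the RSEM version, the aligner, the annotation and the strand setting. Expected counts, of which 5.128% were not whole, were rounded. Each time was fitted on its own, with its 6 groups, in edgeR 4.0.16 (R 4.3.3) with filterByExpr, TMM scaling and the quasi-likelihood test, and contrasts over time in 1 fit of all libraries. P-values were adjusted by Benjamini-Hochberg over all 15623, 16275, 16645, 16809 (5 hr, day 1, day 3, day 5) or 18061 genes tested, and called at 0.05. CPM values are TMM-scaled over all libraries. Other settings tried were DESeq2 1.42.0, RLE scaling, no filter, a replicate block, limma 3.58.1 on log2(TPM + 1) or log2(TPM + 0.1), library sizes without mitochondrial DNA genes, a trend on gene length and GC removed (for some results added after seeing the data), and each library left out. Across 68 pairs of libraries within groups, 0 were identical and the chi-square per degree of freedom was 1.333 to 4.93. Promoters are from RefSeq, GRCh38.p14, and 9 of 9 genes matched. The 9 genes, the lists and the naming rule were chosen with earlier results of these data known: all members and ZBTB11, and from each list up to 4 genes past the threshold with the largest change, or up to 2 where none passed. Values of some list genes are not reported here. Only the net change of both guides at each time was run on simulated counts. These had a fixed spread for all genes and changes only in the ZBTB11 guides with DOX. Changes in sgNS, differences between DMSO lines and contrasts over time were not simulated.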

Additional observations from a re-analysis of the deposited data

Results flagged for a closer look

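Results are listed here because the effect of DOX differed between the guide lines, or between times, by a test of the difference itself. All are log2 differences by edgeR's quasi-likelihood test, and groups of 3 or fewer libraries were not tested for outlying samples.

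For both ZBTB11 guides minus sgNS at 5 hr, the DOX change differed for NFU1 (0.24, adjusted p = 0.00553) and BOLA3 (0.29, adjusted p = 0.000318). For sgZBTB11 #2 minus sgNS at 5 hr it differed for NFU1 (0.35, adjusted p = 0.000363) and BOLA3 (0.44, adjusted p = 2.97e-06), and for sgZBTB11 #2 minus sgZBTB11 #1 for NFU1 (0.21, adjusted p = 0.0353) and BOLA3 (0.30, adjusted p = 0.000896).

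At day 5 the DOX change of both ZBTB11 guides minus that of sgNS was −0.63 for LYRM4, −0.33 for ISCU, −0.48 for NFU1 and −0.71 for BOLA3, with adjusted p from 2.42e-09 to 3.4e-05. With sgZBTB11 #1 minus sgNS it was −0.58 for LYRM4, −0.40 for NFU1 and −0.52 for BOLA3. With sgZBTB11 #2 minus sgNS it was −0.68 for LYRM4, −0.46 for ISCU, −0.30 for ISCA1, −0.57 for NFU1 and −0.89 for BOLA3. Between the guides, sgZBTB11 #2 minus sgZBTB11 #1, it was −0.26 for ISCU (adjusted p = 0.0378) and −0.36 for BOLA3 (adjusted p = 0.0475).

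The net change at day 5 minus that at day 3 was −0.57 for LYRM4, −0.28 for ISCU, −0.44 for NFU1 and −0.59 for BOLA3, with adjusted p from 3.87e-05 to 0.021. BOLA3 and NFU1 were past the threshold in opposite directions at 5 hr and day 5, and the difference between those times was not tested.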

How the results depend on the processing

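BOLA3 kept its call for a lower net change at day 5 in 26 of 26 alternatives. NFU1 lost it on the 3 TPM scales (−0.21 to −0.22, highest adjusted p = 0.258), and LYRM4 and ISCU only with limma and no TPM filter (−0.32 and −0.20, adjusted p = 0.0754 and 0.0916), which left 1 member called. With the length and GC trend removed the 4 values were −0.53 (LYRM4), −0.20 (ISCU), −0.33 (NFU1) and −0.57 (BOLA3), all called. GLRX5 gained a net call at day 5 without sgZBTB11 #1 DMSO replicate 1 (adjusted p = 0.0456) or sgNS DMSO replicate 2 (0.0288). Over all genes the day 5 net change had 3230 calls by edgeR, 2311 by DESeq2 and 4849 by limma.

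Numbers of members called moved as follows, and the cause was not tested. For DOX at 5 hr in sgZBTB11 #1 the number was 4, and 2 with DESeq2, 1 with each limma fit and 0 with the trend removed. In sgNS at 5 hr it was 4, and 2 with the trend removed, with a range of 2 to 4 over fits without 1 library, 2 of them without DMSO replicate 2 or DOX replicate 2. At day 1 the 1 call in sgZBTB11 #1 was 0 under RLE, DESeq2, no filter, both replicate blocks and each limma fit, and 0 to 0 without 1 library. It stayed 1 with the trend removed and in 1 fit of all libraries, where ISCA1 was lost (adjusted p = 0.143 and 0.144) and another member was called. The day 1 number was 2 in place of 1 for sgZBTB11 #2 and 1 in place of 0 for sgNS with limma on log2(TPM + 1) and log2(TPM + 0.1). In sgNS at day 5 it was 4, and 2, 2 and 1 in the limma fits.

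Directions turned mostly on the TPM scale, where the median of all genes moves too. At 5 hr ISCU in sgZBTB11 #1 gave 0.011 in the 3 limma fits, GLRX5 in sgNS gave 0.10, and 0.044 with the trend removed, and the net change of ISCA1 gave −0.16. At day 1 the DMSO difference of sgZBTB11 #1 from sgNS gave, with limma, 0.00061 for GLRX5 and 0.019 for ISCA1. From 5 hr to day 1 in DMSO cells limma gave 0.13 for LYRM4, 0.081 for ISCU, 0.058 for ISCA1, 0.0029 for BOLA3, 0.23 for LIAS and 0.065 for ZBTB11, and from day 3 to day 5 −0.23 for LYRM4, −0.057 for ISCU and −0.12 for ZBTB11. ZBTB11 also turned in its sgZBTB11 #1 net change at day 5 with limma (0.0094), and with the trend removed at 5 hr in sgNS (−0.043) and between the guides (0.021).

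Replicate numbers in the titles did not pair the libraries: the median correlation of same-numbered deviations was 0.00776, −0.00596, −0.00788 and −0.000746 in the order of the times. The block ended the calls of ISCA1 with DOX in sgZBTB11 #1 at day 1 (adjusted p = 0.0508), BOLA3 between the guides at day 5 (0.0692) and ZBTB11 between sgZBTB11 #2 and sgNS DMSO cells at day 1 (0.0636), gave ZBTB11 a net call at day 1 (0.0417) and changed no other call. With it the day 5 net number stayed at 4 (LYRM4 −0.65, ISCU −0.33, NFU1 −0.50, BOLA3 −0.71). Depth limits the members with few counts, LIAS first, with an SE of 0.14 for its day 5 net change.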
